A study of Mus musculus with 35 samples.

Results

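The regions bound by the transcription factor ETS1 were compared between IKDN and wild-type (WT) pre-B cells in 2 deposited ChIP-seq peak lists. ChIP-seq sequences the DNA that an antibody pulls down, and a peak is a stretch where such fragments pile up. The members are the top-ranked 50% of each list by peak score, with chromosome 2 left out because the WT list has no peak there. That gave 16336 peaks from the IKDN list and 11241 from the WT list, 27577 of the 1213505 peaks in the 33 peak lists of the series. A peak was called shared if it overlapped any peak of the other genotype's whole list by at least 1 bp, and IKDN-only or WT-only if it did not. It was called a promoter peak if its centre lay within 2.5 kb of the nearest annotated transcription start site, and a distal peak otherwise.

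Both libraries came from mouse pre-B cell progenitors labelled as stromal-adherent, at passages 3 to 8; the labels refer to another paper for the growth conditions. The IKDN cells came from mice in which CD2-Cre drives a dominant-negative allele of Ikaros. The WT cells came from wild-type mice. The IKDN ETS1 library is labelled with antibody catalogue number sc-349x and the WT ETS1 library with sc-350x, and the labels of the WT E2A and IKDN LHX2 libraries also give sc-349x. There is 1 library for each genotype, so no standard deviation, p-value or replicate check can be given, and genotype, culture, library and antibody cannot be told apart. The intervals below are exact 95% Clopper-Pearson intervals and cover counting error only.

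ETS1 is a founding member of the ETS family of transcription factors, which share a DNA-binding domain that reads sequences around the core GGAA. In lymphocytes it acts at promoters and enhancers of lineage genes, often beside RUNX1 and PAX5; at the Cd79a promoter PAX5 is known to recruit ETS1. Ikaros, encoded by Ikzf1, is a zinc-finger protein that both represses and activates genes during pre-B differentiation. The dominant-negative form lacks DNA binding and pairs with the intact Ikaros family proteins.

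The letters under ETS1 peaks at promoters were read for the core of an ETS site. RefSeq promoter windows (GRCm38.p6, the build behind mm10) were searched. Shown are 50 bases to each side of the centre of the 3 best-ranked promoter peaks of each class that held the core CCGGAA, in a protein-coding gene, with at most 30 bases past the start site. These peaks were picked for holding the core, so they do not show how common it is. Each is written on the strand of its gene, and capitals mark CCGGAA or GGAAGT or their complements TTCCGG and ACTTCC. The genes code for a subunit of the general factor TFIIA (Gtf2a1), a galactosyltransferase (B3galt4), a mitochondrial ribosomal protein (Mrpl51), a mitochondrial DNA-binding protein (Ssbp1), an osmotic-stress transcription factor (Nfat5), an RNA-binding protein (Atxn2l), a MYC-binding protein (Mycbp), an ETS factor (Elk4) and a splicing factor (Srsf11).
IKDN-only, Gtf2a1, chr12:91590471-91590571, minus strand: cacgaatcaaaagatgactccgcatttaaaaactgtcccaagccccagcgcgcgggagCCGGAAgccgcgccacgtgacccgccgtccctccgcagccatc
IKDN-only, B3galt4, chr17:33951460-33951560, minus strand: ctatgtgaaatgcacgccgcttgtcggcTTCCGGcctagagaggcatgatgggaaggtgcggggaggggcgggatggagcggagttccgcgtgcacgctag
IKDN-only, Mrpl51, chr6:125192033-125192133, plus strand: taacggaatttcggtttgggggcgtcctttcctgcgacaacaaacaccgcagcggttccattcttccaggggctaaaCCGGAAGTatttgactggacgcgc
Shared, Ssbp1, chr6:40471304-40471404, plus strand: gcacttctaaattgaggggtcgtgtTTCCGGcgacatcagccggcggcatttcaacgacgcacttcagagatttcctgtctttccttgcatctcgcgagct
Shared, Nfat5, chr8:107293346-107293446, plus strand: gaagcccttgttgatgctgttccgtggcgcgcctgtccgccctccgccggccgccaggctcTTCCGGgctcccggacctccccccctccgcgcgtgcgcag
Shared, Atxn2l, chr7:126503459-126503559, minus strand: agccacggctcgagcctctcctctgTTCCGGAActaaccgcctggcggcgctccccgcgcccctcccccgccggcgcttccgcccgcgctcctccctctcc
WT-only, Mycbp, chr4:123904854-123904954, plus strand: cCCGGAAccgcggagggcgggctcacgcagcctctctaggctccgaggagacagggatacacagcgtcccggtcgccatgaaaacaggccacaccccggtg
WT-only, Elk4, chr1:132007494-132007594, plus strand: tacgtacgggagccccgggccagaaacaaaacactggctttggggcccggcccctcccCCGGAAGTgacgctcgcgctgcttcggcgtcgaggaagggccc
WT-only, Srsf11, chr3:158031754-158031854, minus strand: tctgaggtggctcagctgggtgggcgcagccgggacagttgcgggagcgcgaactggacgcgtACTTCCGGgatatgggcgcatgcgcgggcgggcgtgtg

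Cd79a, the gene of a signalling chain of the B cell receptor, is shown because its promoter peak was near the top of both lists. The IKDN list had it at a score of 37.4, rank 627, and the WT list at 25.7, rank 631. Its letters hold no CCGGAA but GGAAGT just upstream of the start site.
Shared, Cd79a, chr7:24897362-24897462, plus strand: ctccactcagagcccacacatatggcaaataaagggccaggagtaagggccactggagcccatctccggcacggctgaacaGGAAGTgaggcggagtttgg

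The core CCGGAA was common in shared promoter peaks and less common in the peaks of 1 genotype alone. Within 200 bp around the peak centre, on either strand, it was found in 37 of 131 IKDN-only peaks (28.2%, interval 20.7 to 36.8%), 517 of 1181 shared peaks (43.8%, 40.9 to 46.7%) and 27 of 137 WT-only peaks (19.7%, 13.4 to 27.4%). Windows of the same length from all 29974 promoters held it in 10.7%. These counts take only peaks whose whole window fell inside a promoter window, which reaches from 250 bases before to 50 bases after a start site. GGAAGT, which overlaps the core in CCGGAA followed by GT and was added after the Cd79a letters were seen, was found in 27.5% of IKDN-only, 38.6% of shared and 10.9% of WT-only peaks, against 16.6% of all promoters. The WT-only share lies below that of all promoters, and its interval of 6.26 to 17.4% includes it.

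The base composition of the windows was not matched. The E-box letters CAGCTG or CAGGTG, read by E2A, were in 17.6% of IKDN-only, 18.5% of shared and 16.8% of WT-only windows, against 23.1% of all promoters. The RUNX letters TGTGGT were in 8.40% of IKDN-only, 6.86% of shared and 6.57% of WT-only windows, against 11.2%. The homeodomain core TAATTA, read by LHX2 among other factors, was in 0 of 131 IKDN-only peaks, which allows a share of up to 2.29% (3 counts of the total), in 0.593% of shared peaks and in 0 of 137 WT-only peaks, up to 2.19% by the same rule, against 3.65% of all promoters. The CCAAT box, the letters CCAAT, was in 30.5% of IKDN-only, 24.8% of shared and 35.8% of WT-only windows, against 29.5%. For the E-box, RUNX and CCAAT letters the intervals of both genotype-only classes include the share of all promoters. Those of the shared class lie below it. In 100 bp windows this changed for the genotype-only classes. CCAAT was then in 13.3% (9.58 to 17.8%) of IKDN-only and 23.3% (18.13 to 29.2%) of WT-only windows, against 18.08% of all promoters. The E-box and RUNX intervals of WT-only peaks then also lay below the share of all promoters. A match describes the letters of a window and is not a site by itself.

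**Figure D1:**
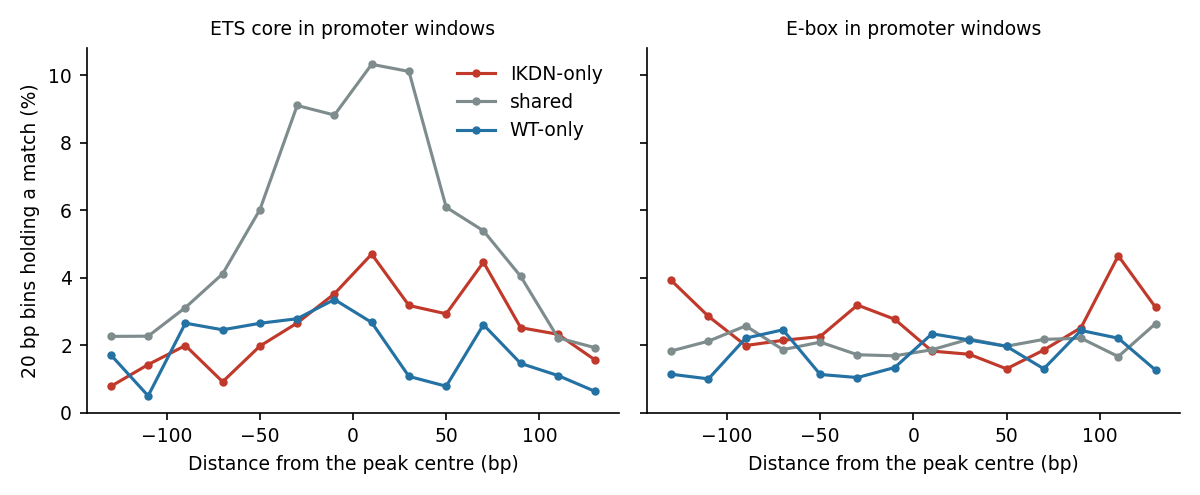
Share of 20 bp bins (percent, vertical axis) that hold the ETS core CCGGAA (left) or an E-box (right) by distance from the centre of the ETS1 peak in bp, for IKDN-only (red), shared (grey) and WT-only (blue) promoter peaks. In shared peaks the ETS core reaches 10.3% just past the centre and falls to about 2% at the edges, while the E-box in shared peaks stays near 2% throughout.

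Position within the peak gave the same picture for the ETS core. In shared peaks the bin centred 10 bp past the peak centre held it in 10.3% of 2838 peaks, and the bin centred 130 bp before the centre in 2.26% of 1856 peaks. An E-box was in 1.83% of shared peaks in the bin centred 130 bp before the centre. The peaks of 1 genotype alone number 430 in the IKDN-only and 315 in the WT-only class, so their lines are uneven.

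Most ETS1 peaks of both genotypes were held in common, and the larger genotype-only class was the IKDN one. Of the 16336 IKDN peaks, 10834 (66.3%, interval 65.6 to 67.0%) overlapped a WT peak, and 5502 did not, a share of 33.7%. Of the 11241 WT peaks, 9601 (85.4%, interval 84.7 to 86.1%) overlapped an IKDN peak, and 1640 did not, a share of 14.6%. The IKDN list is longer, with 32673 peaks against 22482 in the WT list outside chromosome 2, so a WT peak had more chances of a partner. With 11241 peaks taken from each list, the IKDN share with a WT partner was 73.9%, and the WT share stayed at 85.4%. Partners were still sought in the whole other list, so the difference in list length was not removed. With a partner allowed within 1000 bp, 74.9% of IKDN and 93.2% of WT peaks had one, so part of the genotype-only peaks lie beside a peak of the other list. At the lower bound of the members, the last IKDN peak inside and the first outside both had a score of 7.95, and both WT peaks had 7.00.

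**Figure D2:**
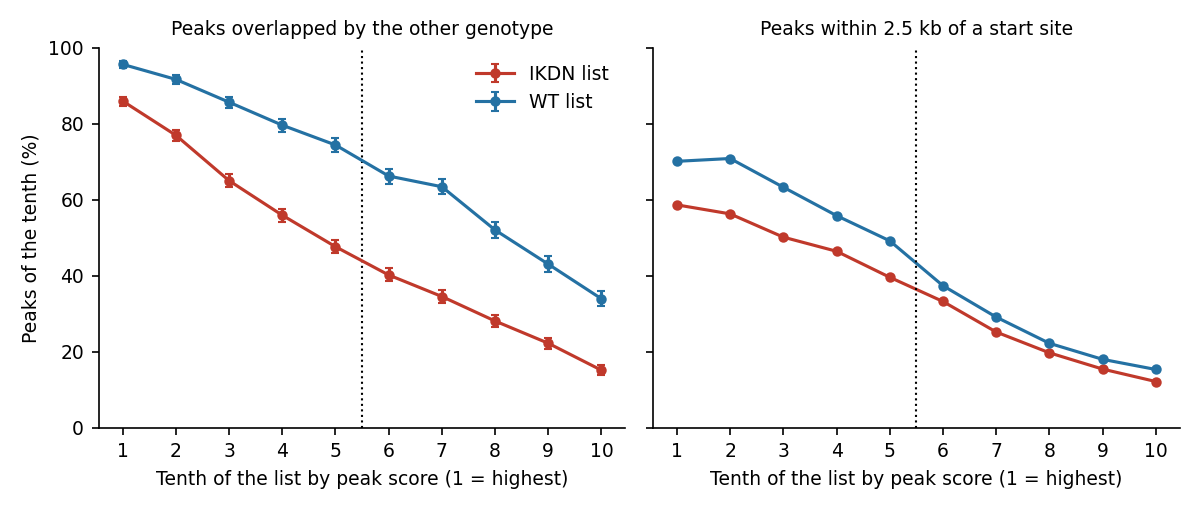
ETS1 peaks in 10 equal bins by score (horizontal axis, 1 is the highest) and the percent of each bin overlapped by a peak of the other genotype (left, bars are 95% counting intervals) or within 2.5 kb of a start site (right), for the IKDN list (red) and the WT list (blue). Sharing falls from left to right in both lists, and the dotted line marks the lower bound of the top-ranked 50%.

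The strongest peaks were the most often shared. In the highest-scored of 10 equal bins, 86.0% of IKDN peaks and 95.6% of WT peaks had a partner. In the fifth bin the shares were 47.7% in the IKDN list and 74.4% in the WT list, and in the last bin 15.2% and 33.9%. Shared peaks sat close together, with a median distance of 36 bp between the IKDN centre and its WT partner's centre. In 79.2% of shared IKDN peaks the WT partner was itself in the top-ranked 50%, and in 89.4% of shared WT peaks the IKDN partner was. The ranks of partners went together, with a Spearman correlation of 0.70 over 10834 pairs, given as a description across regions of these libraries.

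Among the members, the genotype-only peaks lay at different places. IKDN-only peaks were mostly distal, 3764 against 1738 at promoters, a promoter share of 31.6% (interval 30.4 to 32.8%). Shared peaks were at promoters in 59.7% (58.8 to 60.6%) and WT-only peaks in 53.9% (51.5 to 56.3%). Within 100 bp of a start site lay 8.07% of IKDN-only, 32.1% of shared and 19.2% of WT-only peaks. Among IKDN promoter peaks 21.2% were IKDN-only, and among IKDN distal peaks 46.3%. Among WT promoter peaks 12.7% were WT-only, and among WT distal peaks 17.6%. Of all members, 8206 of 16336 IKDN peaks and 6954 of 11241 WT peaks were at promoters. The promoter share fell with score, as sharing did. From the first to the fifth of the 10 bins it went from 58.7% to 39.6% in the IKDN list. In the WT list it went from 70.1% to 49.2%. The classes were not matched for score. When an overlap of 50% of both peaks was required, the order of the shared and WT-only classes turned, with promoter shares of 57.4% and 64.2%. Over the whole lists, promoter shares were 22.6% in IKDN-only, 50.4% in shared and 27.3% in WT-only peaks, so both genotype-only classes were then mostly distal.

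**Figure D3:**
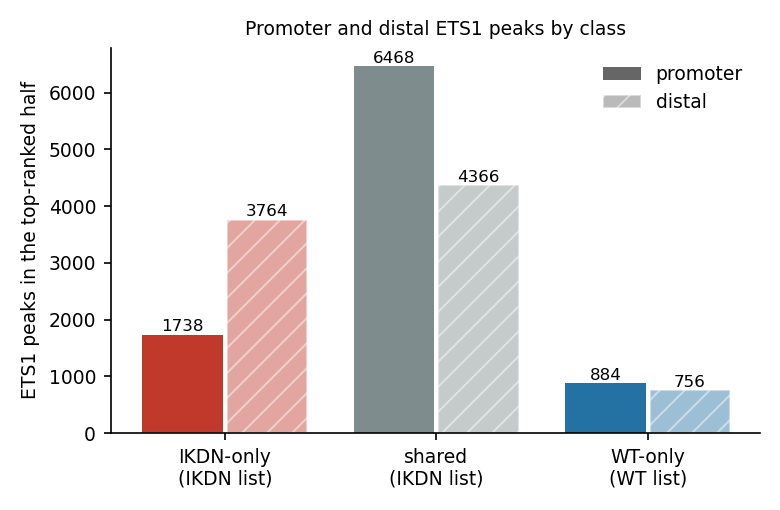
Number of top-ranked ETS1 peaks (vertical axis) at promoters (solid) and distal sites (hatched) in the IKDN-only, shared and WT-only classes. The IKDN-only class has 1738 promoter and 3764 distal peaks, the shared class 6468 and 4366, and the WT-only class 884 and 756.

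Distal peaks of all classes lay mostly in introns and between genes. Introns held 42.9% (interval 41.3 to 44.5%) of IKDN-only, 38.9% of shared and 36.8% (33.3 to 40.3%) of WT-only distal peaks. Among shared peaks of the WT list it was 36.2%. Between genes lay 53.0%, 56.1% and 59.8% of the IKDN-only, shared and WT-only distal peaks. The classes also differed in the repeats at their centres. LINE elements, which are long interspersed retrotransposon copies, held 3.75% of IKDN-only, 5.96% of shared and 14.7% (interval 12.2 to 17.4%) of WT-only distal peaks. These shared peaks are those of the IKDN list, and in the WT list 10.5% of the distal shared peaks lay on LINE elements. LTR elements, the ends of endogenous retroviruses, held 7.68%, 7.35% and 8.99%. Genes for tRNA held 0.266% of IKDN-only, 3.07% of shared and 0.265% of WT-only distal peaks.

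The highest scores belonged to multi-copy RNA genes and histone genes. The top shared distal peak lay on a copy of the small RNA U3 in an intron of Tex14, a germ cell gene. It scored 890.7 in the IKDN list and 569.0 in the WT list. Peaks in 22 of the 31 other lists of the series overlapped it. The next, near Rdm1, lay on a U2 copy with scores of 828.9 and 499.6, and 23 of the other lists overlapped it. Of the 100 best-ranked peaks, 34 in the IKDN list and 31 in the WT list lay on such RNA copies or on simple repeats. Whether such repeats draw signal without ETS1 was not tested.

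Histone gene promoters stood near the top of both lists. The IKDN list had 65 promoter peaks at 57 histone genes and the WT list 60 at 53, and 60 of the IKDN and 59 of the WT peaks were shared. The best were Hist1h3i at 395.4, Hist1h3h at 387.8, Hist1h3b at 384.8 and Hist1h3d at 380.1 in the IKDN list, all coding for histone H3. Outside multi-copy repeats, the best-ranked IKDN-only promoter peaks were also at histone genes: Hist2h3c1 at 138.1, Hist2h2aa1 at 122.8, Hist1h2bl at 111.3 and Hist1h1b at 100.1. The copies of these genes are near-identical, so the placement of reads among them is uncertain.

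Outside repeats, the best-ranked IKDN-only distal peaks were near 6430706D22Rik at 159.9 and near Limd1, a LIM-domain scaffold of the Hippo pathway, at 155.5. Both lie in annotated 3′ UTRs. The best-ranked WT-only promoter peaks were at Slc6a19, an amino acid transporter gene, at 34.7, Dynlt1b, a dynein light chain gene, at 24.2, the histone gene Hist1h2be at 24.2, Slc39a7, a zinc transporter gene, at 23.6, and Syde1 at 22.5. The best-ranked WT-only distal peaks lay on telomere-like simple repeats near Lphn3 at 250.8 and Lphn2 at 102.9, both adhesion receptor genes, and in an intron of Hgsnat, a lysosomal acetyltransferase gene, at 145.5.

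Distal ETS1 peaks found in 1 genotype alone often carried enhancer marks that differed the same way. H3K27ac is an acetylation of histone H3 at active enhancers and promoters. Of the 3764 distal IKDN-only peaks, 36.5% (interval 34.9 to 38.0%) lay in H3K27ac peaks of IKDN cells alone, 1.59% in those of WT cells alone, 44.2% in both and 17.7% in neither. Of the 756 distal WT-only peaks, 1.72% lay in H3K27ac of IKDN cells alone, 24.5% (21.4 to 27.7%) in that of WT cells alone, 36.9% in both and 36.9% in neither. Of the 4366 distal shared peaks, 6.80% had the mark in IKDN cells alone, 4.97% in WT cells alone and 69.4% in both. H3K4me1, a methylation of primed and active enhancers, was in both genotypes at 59.7% and in IKDN alone at 28.2% of the distal IKDN-only peaks. At the distal WT-only peaks it was in both at 40.2% and in WT alone at 17.2%.

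**Figure D4:**
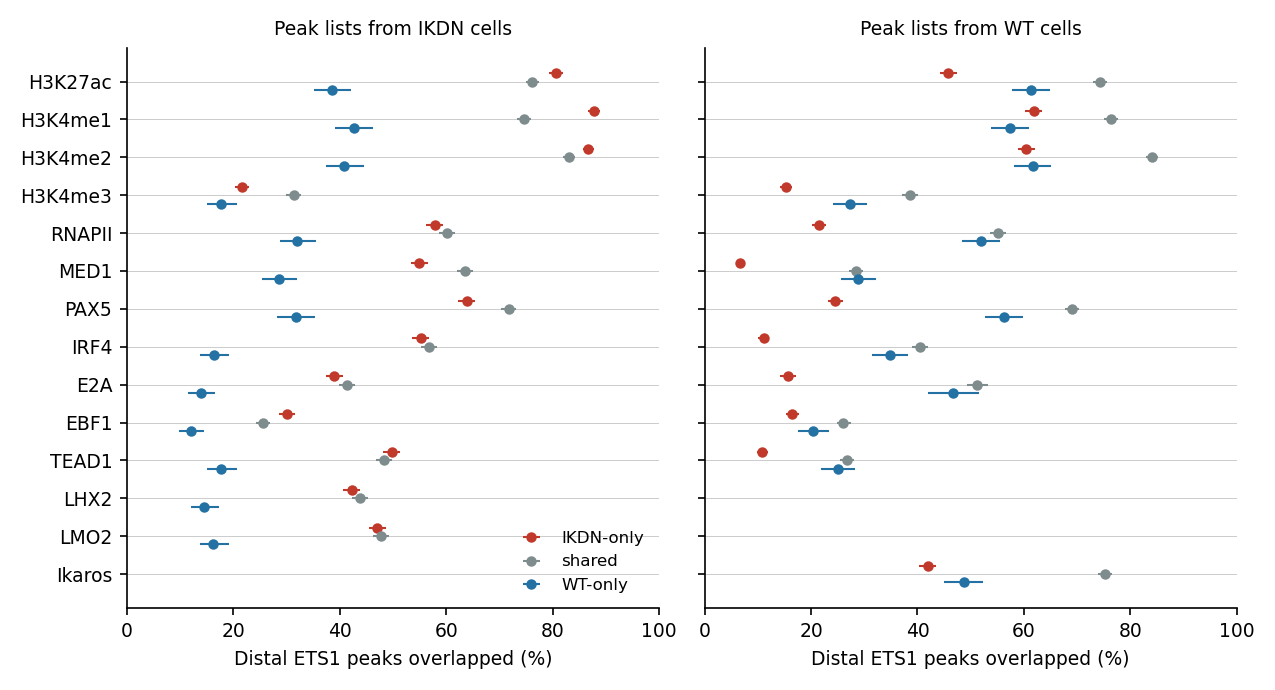
Percent of distal ETS1 peaks (horizontal axis, bars are 95% counting intervals) overlapped by a peak of each histone mark or factor (rows) mapped in IKDN cells (left) and in WT cells (right), for IKDN-only (red), shared (grey) and WT-only (blue) ETS1 peaks. In the IKDN panel the IKDN-only points lie close to the shared points for LHX2, LMO2, TEAD1, IRF4 and E2A, and in the WT panel they lie well below them for TEAD1, IRF4 and E2A.

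When mapped in IKDN cells, LHX2, LMO2, TEAD1, IRF4 and E2A were found at the distal IKDN-only peaks about as often as at shared ones. PAX5 and MED1 were found there less often than at shared ones, and EBF1 more often. LHX2, a homeodomain factor mapped in IKDN cells alone, overlapped 42.2% of IKDN-only, 43.8% of shared and 14.6% of WT-only distal peaks. LMO2, a bridging protein of blood stem cell complexes, also mapped in IKDN cells alone, overlapped 47.1%, 47.8% and 16.3%. TEAD1, the DNA-binding partner of YAP, overlapped 49.8%, 48.4% and 17.7% when mapped in IKDN cells, and 10.9%, 26.7% and 25% when mapped in WT cells.

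Of the B lineage factors, IRF4 and E2A gave a split like that of TEAD1. IRF4 of IKDN cells overlapped 55.2% of IKDN-only, 56.8% of shared and 16.4% of WT-only distal peaks, and IRF4 of WT cells 11.1%, 40.5% and 34.8%. PAX5 of IKDN cells overlapped 63.8%, 71.8% and 31.8% on the 18 chromosomes complete in its list, and PAX5 of WT cells 24.5%, 69.1% and 56.3%. E2A of IKDN cells overlapped 39.0%, 41.3% and 13.9%. E2A of WT cells overlapped 15.6%, 51.3% and 46.8% on the 12 chromosomes complete in its list. EBF1, which opens B lineage enhancers, gave 30.1%, 25.6% and 12.0% for IKDN cells and 16.4%, 26.1% and 20.4% for WT cells. Ikaros of WT cells overlapped 41.9% of IKDN-only, 75.3% of shared and 48.7% of WT-only distal peaks. MED1, a Mediator subunit, overlapped 54.9%, 63.6% and 28.6% in IKDN cells, and 6.67%, 28.4% and 28.8% in WT cells. Several of the lists differ in length between genotypes, with 24239 and 12105 peaks for MED1 and 29589 and 17973 for IRF4 in IKDN and WT cells, and the values at shared peaks differ with them.

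Both ETS1 lists resembled each other more than any other list of the series. Over the 5000 top-ranked peaks of each, the Jaccard index, the shared part of the union, was 0.482 between the IKDN and WT ETS1 lists. The nearest other list was the histone mark H3K4me3 of WT cells for the WT list, at 0.350. For the IKDN list it was H3K27ac of IKDN cells, at 0.299. MED1 of the same cells gave 0.285 for IKDN and 0.319 for WT. The ETS1 lists of IKDN and WT cells had an index of 0.102 and 0.0661 with E2A of IKDN cells, 0.126 and 0.147 with E2A of WT cells, and 0.0556 and 0.0337 with LHX2. The index between genotypes was 0.492 for PAX5, 0.463 for EBF1, 0.402 for IRF4, 0.364 for E2A and 0.248 for TEAD1. The 5000 peaks came from the chromosomes complete in the lists compared. These were 12 for each index with E2A of WT cells, 18 for PAX5 and 20 for the others given here. The indices on fewer chromosomes reach further down the lists and are not on the same footing.

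At promoters, IKDN-only peaks more often lay where the repressive mark H3K27me3 was mapped in WT cells alone. H3K27me3 is set by Polycomb complexes at silent genes. This was so for 199 of 1738 promoter IKDN-only peaks (11.5%, interval 9.99 to 13.0%), at 181 genes, for 3.03% of shared and for 1.02% of WT-only promoter peaks. The mark in IKDN cells alone was at 1.09%, 0.649% and 1.81%. Examples from the best-ranked of these genes, chosen after their values were seen, are Ajuba, a LIM scaffold of the Hippo pathway and of cell junctions, at a score of 24.4 and 31 bp upstream of its start site, Gng11, a G protein gamma subunit, at 23.0, and Tsku, a secreted signalling modulator, at 20.6. Dock1, a Rac activator, had its peak at 18.5, Tead4, a partner of YAP, at 16.5 and Nrp1, a semaphorin co-receptor, at 15.3.

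Counted by the gene name that the lists give each peak, 10688 genes had at least 1 member. A gene was called where 1 genotype had at least 2 more genotype-only peaks than the other, which is a threshold and not a test. With that rule 915 genes were called for IKDN, 8.56%, and 52 for WT, 0.487%. The median difference was 0 and the mean 0.361 peaks more in IKDN. With equal numbers of peaks taken from each list, and partners still sought in the whole other list, the calls were 366 for IKDN and 68 for WT. Of the 915 genes, 552 also held a shared peak.

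Trio, an activator of the small GTPase Rac, had the most IKDN-only peaks. The IKDN list had 17 members there and the WT list had none. They scored from 14.4 down to 7.95, reached from 80.3 kb upstream to 149 kb downstream of the start site, and 2 were at the promoter. All 17 lay in H3K27ac peaks of IKDN cells and 3 in those of WT cells. Sipa1l2, of a family that acts on the GTPase Rap, had 9 IKDN-only and no WT-only peak, and its strongest, 199 kb downstream of the start site, scored 58.6.

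Of the other genes with the most IKDN-only peaks, Fam101a, a filamin-binding protein gene, had 9 IKDN-only peaks, up to 19.1, with 8 in H3K27ac of IKDN cells and 3 in that of WT cells. Spry4, an inhibitor of receptor tyrosine kinase signalling, had 8, up to 21.5, with 7 and 0 in that mark. Its 3 shared peaks included 1 at 30.0 in the IKDN list, 30.5 kb upstream of the start site, with a WT partner at 24.2. Ndrg1, a stress-induced gene, had 8 up to 18.3, Nav2, a neuron navigator gene, 7 up to 36.8, and Kcnma1, a potassium channel gene, 7 up to 30.9. Zfp36l1, an RNA-binding protein that promotes mRNA decay in B cell development, had 8 IKDN-only peaks against 1 WT-only peak. All of the 8 lay in H3K27ac of both genotypes.

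Most of the genes named for WT lay at antigen receptor loci. Mir6388 was the nearest gene to 11 WT-only peaks and Mir7094-2 to 8, all within Igh, the immunoglobulin heavy chain locus. Rprl1 was nearest to 11 and Rpia, a pentose phosphate enzyme gene, to 4, all within Igk, the kappa light chain locus. A430107P09Rik was nearest to 8 and Olfr1507, an olfactory receptor gene, to 4, all within Tcra, the T cell receptor alpha locus. No IKDN-only peak was assigned to Mir6388, Rprl1, Rpia or Olfr1507, 1 was assigned to Mir7094-2 and 2 to A430107P09Rik. Lphn2 with 4 and Tmem163 with 3 WT-only peaks lay outside these loci.

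The loci were then counted whole, a step chosen after those values were seen. Igh (chr12:113258768-116009954) held 28 top-ranked IKDN peaks, 5 of them IKDN-only, and 67 top-ranked WT peaks, 26 of them WT-only. Of the members there, 18 in the IKDN list and 53 in the WT list lay within 500 bp of a variable (V) segment. Igk (chr6:67555636-70726754) held 6 IKDN peaks, none IKDN-only, and 22 WT peaks, 16 WT-only, of which 13 lay near a V segment. Tcra (chr14:52427967-54224198) held 7 IKDN peaks, 4 IKDN-only, and 22 WT peaks, 12 WT-only, of which 11 lay near a V segment. Tcrb held 2 IKDN peaks and 1 WT peak, and Tcrg 5 in each list. Among all members 33.7% of IKDN peaks were IKDN-only and 14.6% of WT peaks were WT-only. Among distal members it was 46.3% and 17.6%.

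Over the 6 receptor loci counted there were 11 of the 5502 IKDN-only peaks. There were 57 of the 1640 WT-only peaks, which made up 3.48% of that class. Other lists of the IKDN cells also held fewer peaks in Igh and Igk. H3K27ac had 68 peaks in IKDN and 177 in WT cells within Igh, and 22 and 186 within Igk. PAX5 had 167 and 260 within Igh, and 143 and 253 within Igk. Of the 16 WT-only ETS1 peaks in Igk, none lay in H3K27ac of IKDN cells and 15 in that of WT cells. Some V segments are close copies of each other and pre-B cells rearrange Igh and Igk, so read placement and deleted stretches may differ between cultures. Their part in the result was not tested.

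The cells' labelled identity was checked against the places of the peaks, since no expression was measured. Of 26 B lineage genes outside chromosome 2, all had a member. It was 12 of 19 T lineage, 9 of 19 myeloid, 6 of 15 erythroid and megakaryocyte and 8 of 22 stromal fibroblast genes. The pre-B genes Vpreb1 and Igll1, planned as B lineage markers but held in another list, had no peak assigned in either whole list. A high share was not particular to the B lineage list, with 18 of 18 survival and cytokine genes and 16 of 19 housekeeping genes. B lineage peaks held in common included Cd22, an inhibitory receptor, with 3 shared peaks in each list, up to 45.3 in IKDN and 27.1 in WT. Cd79b, the partner chain of Cd79a, and Il7r, the interleukin-7 receptor chain, also had 3 in each. Tcf3, the gene of E2A, had 1 promoter peak, at 67.4 in the IKDN list and 58.3 in the WT list. None of these genes had a genotype-only member.

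**Figure D5:**
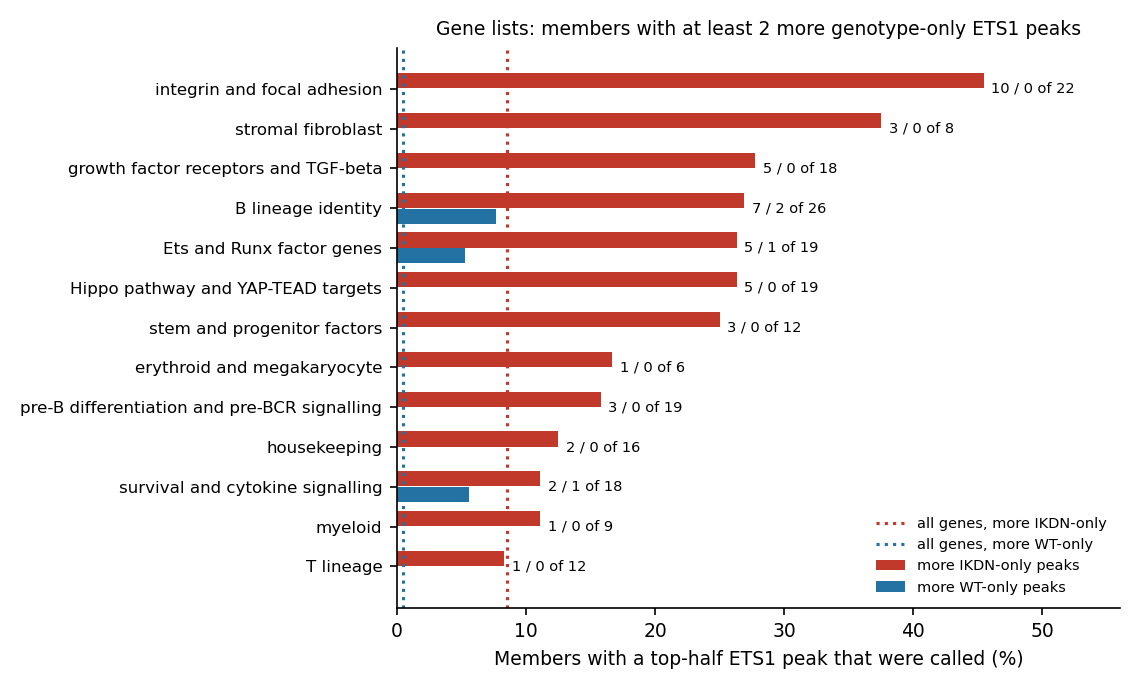
Percent of the members of each gene list with a top-ranked ETS1 peak (horizontal axis) that were called with at least 2 more IKDN-only peaks (red) or at least 2 more WT-only peaks (blue). Dotted lines give the same over all 10688 genes, 8.56% and 0.487%, and the text gives the counts called for IKDN and WT of the members.

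B lineage regulators had genotype-only peaks beside the shared ones. Of the 26 B lineage genes, 7 were called for IKDN and 2 for WT, and with equal numbers of peaks 3 and 2 of 25. Over all genes it was 8.56% and 0.487%, and with equal numbers 3.83% and 0.712%. Their distal IKDN peaks were IKDN-only in 32 of 55, 58.2%, against 46.3% of all distal IKDN peaks. Foxo1, a factor needed for pre-B differentiation, had 7 IKDN-only peaks, up to 26.2 at 136 kb downstream of its start site, and 1 WT-only peak at 8.17, at the promoter. Lef1, an HMG-box factor, had 6 up to 15.6 and no WT-only peak, and Bach2, a repressor in B cells, had 5 up to 22.4 against 2 up to 10.8, the WT pair lying beside 2 of the IKDN-only peaks without overlap, all of them 178 to 179 kb upstream of the start site. Bcl11a had 3 against 1. Ebf1 had 2, at 15.3 and 14.7, close upstream of its start site, and no WT-only member. Pou2af1, a coactivator of B cells, and Irf4 had 2 each, and the Irf4 pair included the promoter at 9.13.

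Pax5, which commits cells to the B lineage, had no genotype-only member. Its 2 shared peaks scored 17.7 and 15.6 in the IKDN list, and the same regions scored 9.62 and 10.8 in the WT list. On the WT side, Spib, an ETS factor of the PU.1 branch, had 2 WT-only promoter peaks, at 9.92 and 8.46, and no IKDN peak among the members. Fcrla, an Fc receptor-like gene, had 2 at 7.29. Blk, a B cell tyrosine kinase gene, had 1 WT-only peak at 8.17, in an intron, within H3K27ac of WT cells and outside that of IKDN cells. Of 19 pre-B differentiation and pre-B receptor signalling genes, 3 were called for IKDN (15.8%, against 8.56% of all genes) and 0 for WT. They were Prdm1, a repressor that drives plasma cell fate, with 4 against 1, and the signalling genes Syk and Plcg2 with 3 each against none. With equal numbers of peaks it was 1 and 0 of 18. Distal IKDN peaks of this list were IKDN-only in 14 of 37, 37.8%, below the 46.3% of all distal IKDN peaks.

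Of 19 genes of ETS and RUNX factors, 5 were called for IKDN and 1, Spib, for WT, against 8.56% and 0.487% of all genes. Their distal IKDN peaks were IKDN-only in 23 of 47, 48.9%, near the 46.3% of all distal IKDN peaks. Ets1 itself had 5 IKDN-only peaks against 1 WT-only peak. The IKDN peaks scored 14.1 at the promoter, 12.7 at 121 kb downstream, 10.9 in an intron, and 10 and 8.54 upstream. All 5 lay in H3K27ac of both genotypes, and the WT-only peak scored 7.29 in an intron. Fli1, the neighbouring ETS factor gene, had 6 IKDN-only peaks up to 18.3, and its best shared peak scored 38.0 in the IKDN list and 24.5 in the WT list. Runx1 had 5 IKDN-only and 7 shared peaks, and Elk3 and Etv6 had 3 IKDN-only each. Ikzf1 had 2 IKDN-only peaks upstream, at 13.8 and 12.4, and 1 WT-only peak at its promoter, at 12.0. Ikzf3, which codes for Aiolos, had 2 shared peaks and none of 1 genotype alone.

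Of 22 integrin and focal adhesion genes with a member, 10 were called for IKDN (45.5%) and 0 for WT. With equal numbers of peaks it was 6 of 21, 28.6%, against 3.83% of all genes, a share that the stromal fibroblast list, with 2 of 7, and the ETS and RUNX list, with 5 of 18, also came to or came near. Of the 40 distal IKDN peaks at these genes, 30 were IKDN-only, 75.0% against 46.3% of all distal IKDN peaks. Itga5, the fibronectin receptor chain, had 5 IKDN-only peaks, 16.5 to 10.3, all in H3K27ac of both genotypes, and no WT peak among the members. Tns3, a tensin found at focal adhesions, had 5 up to 14.1. Its best shared peak scored 49.5 in the IKDN list and 12.8 was the best shared score in the WT list. Itga9 had 4 IKDN-only peaks, at 21.5, 11.5, 11.5 and 9.42, all intronic. Its shared intronic peak was among the strongest of both lists, at 83.9 in IKDN and 64.2 in WT. Itga1 and Actn1, an actinin gene, had 3 each, and Itgb1, the common beta chain, had 2 upstream besides a shared promoter peak at 35.6 in IKDN and 10.2 in WT.

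Against 8.56% of all genes, the stromal fibroblast list was also called often for IKDN, with 3 of 8 members and 0 for WT. These were Thy1, a surface glycoprotein also held in the T lineage list, with 4 IKDN-only peaks up to 19.7, Cxcl12, a chemokine gene, with 3 up to 23.0, and Pdgfrb, a growth factor receptor gene, with 2 up to 11.5. Over the whole stromal list there were 15 members in the IKDN list, 12 of them IKDN-only, and 2 in the WT list, 1 of them WT-only. Of the 14 distal ones in the IKDN list, 11 were IKDN-only. Among all IKDN members 33.7% were IKDN-only, and among all distal ones 46.3%. The other stromal genes with a member were Col3a1, shared in both lists, Fn1, Postn and Twist2 with 1 IKDN-only peak each, and Col1a2 with 1 WT-only peak. The remaining 14, among them Col1a1, Pdgfra, Dcn and Lum, had none in either list. The part of stromal cells in the result was not tested. Of the other lists of non-B cells, T lineage had 1 of 12 called for IKDN, Thy1, myeloid 1 of 9, Itgam, and erythroid and megakaryocyte 1 of 6, Vwf. With equal numbers of peaks the counts were 1 of 9, 0 of 6 and 0 of 6. None of these lists had a member called for WT.

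With equal numbers of peaks the called members for IKDN were 2 of 19 Hippo and 2 of 18 growth factor and TGF-beta genes. The stem and progenitor factor list had 1 of 12, and over all genes it was 3.83%. Without that limit 8.56% of all genes were called for IKDN and 0.487% for WT. Distal IKDN peaks of the Hippo list were IKDN-only in 11 of 23, 47.8%, near the 46.3% of all distal IKDN peaks. In the growth factor and TGF-beta list it was 53.6% of 28, and in the stem and progenitor factor list 65.2% of 23. Over the members as defined, of 19 genes of the Hippo pathway or targets of YAP and TEAD, 5 were called for IKDN and 0 for WT: Ptpn14, a phosphatase that binds YAP, with 4 IKDN-only peaks up to 21.8, Crim1 with 3, and Tead1, Amotl1 and Amotl2 with 2 each. Tead1 had 4 shared peaks in the IKDN list, up to 18.8, while no WT peak assigned to it was among the members. Of 18 growth factor receptor and TGF-beta genes, 5 were called for IKDN and 0 for WT, led by Nrp2 with 4, and Smad3 and its pathway's inhibitor Smad7 with 3 each. The 18 include Met only through peaks that the peak lists name Sltm, which is another gene. These were 1 IKDN-only and 1 WT-only peak, and it was not called. Of 12 stem and progenitor factor genes, 3 were called for IKDN and 0 for WT. Hlf, a leucine zipper factor of blood stem cells, had 6, up to 24.4, with 4 in H3K27ac of IKDN cells and none in that of WT cells. Hhex and Id3 had 3 each against 1 at their promoters in WT.

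For IKDN the remaining pair of lists lay nearer the share over all genes, which was 8.56% for IKDN and 0.487% for WT. Of 18 survival and cytokine signalling genes, 2 were called for IKDN (11.1%), Socs3 and Pim1. For WT 1 was called (5.56%), Socs2, so that share rests on 1 gene. Of 16 housekeeping genes, 2 were called for IKDN (12.5%) and 0 for WT. Of their 35 IKDN peaks 17.1% were IKDN-only, against 33.7% of all IKDN members. With equal numbers of peaks 1 survival gene was called for each genotype (5.56%) and 1 housekeeping gene for IKDN (6.25%). Over all genes it was then 3.83% for IKDN and 0.712% for WT. A list's called share also depends on how many peaks its genes draw, since a gene with 1 peak cannot be called. Lhx2 and Lmo2 lie on chromosome 2 and were not analysed here.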

How the data were processed

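ETS1 ChIP-seq was taken from 1 IKDN and 1 WT library. The authors deposited annotated peak lists, 35517 peaks for IKDN and 22504 for WT, each with a peak score, the distance to the nearest start site and a gene name, per the file headers. HOMER, STAR, BWA and bcl2fastq 1.8.3 appear in the submitters' processing notes, as do the mm9 and mm10 builds; which tool made which step is not given in the sources used here. The positions were those of mm10: 93.7% of IKDN and 94.1% of WT peaks within 25 bp of a start site fell in that gene's GRCm38.p6 promoter window. The scale of the deposited score is not stated. Scores up to 10 step by a constant, within 0.006, for 97.5% of IKDN and 100% of WT peaks. If scores are tags per 10 M, which is an inference, the libraries held 34.0 M and 34.3 M tags. Scores rank peaks within a list. A score set beside that of the other list assumes equal scales.

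The 2817 IKDN peaks on chromosome 2 and 27 IKDN and 22 WT peaks on unplaced contigs were left out. 66 IKDN and 38 WT gene names that a spreadsheet had turned into dates were resolved by Entrez ID. Overlaps, counts and intervals were computed with Python 3.11.15, numpy 2.4.6, pandas 2.3.3 and scipy 1.17.1. The overlap step was tested on simulated peaks. Lists of other targets entered on their complete chromosomes. Genes were named as the nearest genes of the 5 top-ranked peaks of each class and place, the 8 genes with the largest difference each way, up to 4 called members a gene list each way, and Ets1, Ikzf1, Ikzf3, Lhx2, Lmo2, Tead1, Ebf1, Pax5, Irf4, Tcf3, Cd79a, Blk and Itga9. Other named genes (the shared B lineage genes Cd22, Cd79b and Il7r, and further list members) were chosen after their values were seen. The members, the 13 gene lists and the rules were chosen with earlier results of these data known. Alternatives were other overlap rules, the whole lists, equal peak numbers, a promoter distance of 1 kb, a call at a difference of 1, a 100 bp letter window and leaving out multi-copy repeats, the last 2 added after seeing the data. The letter search planned for distal peaks needs a genome and was made in RefSeq promoters instead. The shown promoters were chosen with that change.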

Additional observations from a re-analysis of the deposited data

How the results depend on the processing

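In each alternative run for it, IKDN-only peaks were less often at promoters than shared peaks, and IKDN peaks less often shared than WT peaks. With an overlap of 50% of both peaks, 54.9% of IKDN and 71.0% of WT peaks were shared, the promoter share was 41.5% in IKDN-only, 57.4% in shared and 64.2% in WT-only peaks, and 66.0% of distal WT-only peaks lay in H3K27ac of WT cells. With partners within 1000 bp, 74.9% and 93.2% were shared. With partners from the top-ranked 50% alone, 52.5% and 76.3% were shared, and the promoter share was 66.2% in shared and 47.9% in WT-only peaks. Over the whole lists, 47.2% and 68.6% were shared, the promoter share was 22.6%, 50.4% and 27.3%, 2873 genes were called for IKDN and 470 for WT, and H3K27ac of the same cells covered 53.7% of distal IKDN-only and 37.1% of distal WT-only peaks. With the same number of peaks from each list and partners from the whole other list, 73.9% of IKDN peaks were shared. That setting gave 366 genes called for IKDN. With a promoter distance of 1 kb, the promoter share was 26.1%, 56.1% and 48.7%. Letters in 100 bp gave the ETS core in 15.7%, 33.7% and 11.7%, and an E-box in 10.5%, 8.81% and 7.92%. A call at a difference of 1 gave 3232 genes for IKDN and 788 for WT. Without multi-copy repeats the promoter share of shared peaks was 61.5%. Net calls of the gene lists moved by over 1.5 times in 35 of the recomputed values and by less in 17. None turned to the other genotype, and the net call fell to 0 for the myeloid, the erythroid and megakaryocyte and the survival lists with equal peak numbers, and for the housekeeping list over the whole lists.

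No paired analysis was possible because each genotype has 1 library. Leaving out a replicate was not possible either. The ETS core and E-box shares of distal peaks were not run, since they need a genome. Peaks near the lower bound hold few tags, 27 at the IKDN and 24 at the WT bound if the inferred scale holds, so a missing partner there may lie just under the other list's threshold.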
